A study of Saccharomyces cerevisiae with 24 samples.

Results

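In yeast, the stretch of DNA upstream of an open reading frame (ORF) is usually free of nucleosomes and is held instead by transcription factors, remodelling complexes and the transcription machinery. Micrococcal nuclease (MNase) digests unprotected DNA, and short fragments that survive it mark sites covered by such complexes, which are smaller than a nucleosome. The best-known occupants of busy yeast promoters are the general regulatory factors Rap1, Abf1 and Reb1, and Rap1 with its partners Fhl1 and Ifh1 is known for holding the promoters of ribosomal protein genes. The promoters described here are those that were rich in small fragments before the metal was added: the ORFs whose promoter count exceeded 274 in the 0 min column, selected on that 1 measured value, which gave 493 of the 4427 promoters of the table (11.1%). They are called rich promoters below. The 0 min count chose them, so their counts at 0 min are a description, and so is any change measured from that column.

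The cells were budding yeast of the haploid laboratory strain W303 (MATa, requiring supplements through his3-11,15, ade2-1, ura3-1, trp1-1 and a mutant leu2 allele, and carrying can1-100) grown in rich medium. They were sampled at 0 min without cadmium and at 7.5, 15, 30, 60 and 120 min in 1 mM cadmium chloride, with 12 MNase and 12 RNA samples, 2 of each per time point. All groups share the strain and its mutations, and the untreated group was taken only at 0 min, so time in culture and time in cadmium cannot be told apart. The MNase replicates are described as technical ones, and nothing in the labels says whether the RNA replicates came from separate cultures. Each deposited table holds 1 column per time point, with no replicate named. Every change below is therefore a difference between columns with no replicate check and no p-value, and errors given as ± are counting errors alone.

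Fragment totals over the table ran from 653634 at 7.5 min to 1050068 at 120 min, and the column median from 138 to 228. Promoter counts are therefore given as deposited and as scaled counts, in which 1 is the median of the column. Changes in promoter counts are log2 differences of the scaled count plus 0.25, and 0.5 was taken as the size that counts as a change. Their median counting error from 7.5 to 120 min was 0.099 for rich promoters and 0.128 for the others. Expression is in TPM, the share of transcripts per unit length scaled to a fixed total, with changes as log2(TPM + 1) differences and a change counted at 1. Such a difference understates the change of weakly expressed genes. Entropy is the authors' score of how irregularly nucleosomes lie over the gene body, with a change counted at 0.2.

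The rich promoters stood at a median scaled count of 2.05 at 0 min, between 1.82 at the threshold and 3.74 at the top. The other promoters had a median of 0.907. Of the rich promoters, 125 lay within 1 counting standard deviation of the threshold (16.6 fragments), and 151 promoters lay as close below it. Just inside were 9 promoters with 1 fragment more than 274. Among them were PEP1, which encodes a vacuolar sorting receptor, ORC2, a subunit of the origin recognition complex, and MSN5, a nuclear transport receptor. Just outside were 6 promoters with 274, among them the lipid acyltransferase gene SLC1, the chaperonin subunit gene CCT6 and the inositol transporter gene ITR1. The edge is thus crowded, and only 28 promoters exceeded 400 fragments.

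The highest count belonged to RPL40A (YIL148W), whose product is a fusion of ubiquitin and a ribosomal protein, with 564, 526, 532, 646, 692 and 721 fragments at the 6 time points in order. HEM1 (YDR232W), the first enzyme of heme synthesis, and COX20 (YDR231C), an assembly factor of cytochrome oxidase, followed with 525 and 512. These 2 ORFs are transcribed away from each other across one intergenic stretch on chromosome IV, 926911 to 927451 of assembly R64. RPN4 (YDL020C), the transcription activator of proteasome genes, had 520, 453, 472, 647, 657 and 811 fragments at the 6 time points in order. RGL1 (YPL066W), a regulator of Rho1 signalling, had 519, 428, 391, 424, 400 and 301 fragments at the 6 time points in order. Of these, RGL1 was the only one with fewer fragments at 120 min than at 0 min as deposited. The remaining 5 of the highest 10 were TRM13, a tRNA methyltransferase gene (489), GID8, a ubiquitin ligase subunit gene (487), RPL20B, a ribosomal protein gene (485), MOT1, which encodes a remover of TATA-binding protein (483), and FPT1 (479).

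Of 15 gene lists, cytosolic ribosomal protein genes had the highest share of rich promoters. Of the 111 in the table, 64 (57.7%) had a rich promoter (95% Wilson interval 48.4 to 66.4%, covering counting of ORFs only), against 11.1% of all promoters, and they made up 13.0% of the rich promoters but 2.51% of the table. After RPL40A and RPL20B the highest count was that of RPL19B (YBL027W), with 436 fragments. The 47 ribosomal protein genes outside the set were also above the table's median, at a median scaled count of 1.50. The lists were chosen with earlier results of these data known, so the intervals are no test. Of 95 sequence-specific transcription regulators, 21 (22.1%, Wilson interval 14.9 to 31.4%) were rich. They included the general regulatory factor genes REB1 with 367 fragments, ABF1 with 329 and TBF1 with 378, and the list's highest counts after RPN4 were those of PHO4, the activator of phosphate genes, with 421 and HAP1, the heme-responsive activator, with 402.

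The other lists were closer to the table as a whole. Rich promoters were 9 of 47 plasma membrane transporter genes (19.1%), 5 of 27 sulfur metabolism genes (18.5%), 4 of 23 heat shock and chaperone genes (17.4%), 8 of 55 amino acid synthesis genes (14.5%), 4 of 30 proteasome genes (13.3%) and 3 of 23 translation factor genes (13.0%). The share was 10.8% for ribosome biogenesis (10 of 93) and 10.7% for oxidative and general stress genes (3 of 28). It was 5.88% for cell wall and surface genes (2 of 34), and 1 gene each was rich among 20 cell cycle regulators, 24 glycolysis and fermentation genes and 34 nucleotide synthesis genes. Neither of the 2 histone genes in the table was. The proteasome list includes RPN4, which is also counted among the transcription regulators. PDC1, the pyruvate decarboxylase gene, was the 1 rich promoter among the glycolytic genes, with 277 fragments. In the other lists the members were few, and the intervals are wide.

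**Figure D1:**
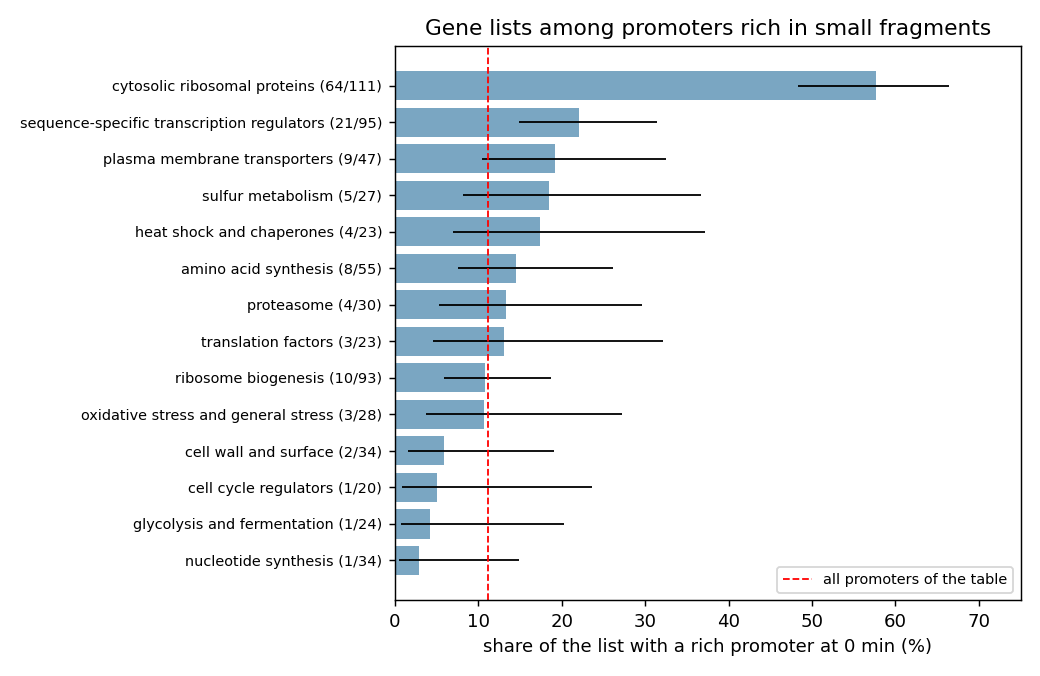
Share of each gene list (horizontal axis, %) with a promoter count above 274 at 0 min, for the 14 lists with at least 5 ORFs in the table. The numbers beside each name give rich promoters over list members in the table, black lines are 95% Wilson intervals that cover counting of ORFs only, and the dashed line marks the 11.1% of all promoters. Ribosomal protein genes, at 57.7%, lie far to the right of the other lists.

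Rich promoters had more room upstream. The distance from the ORF start to the nearest upstream gene in the RefSeq table had a median of 504 bases (quartiles 359 and 752), against 405 bases (272 and 641) for the other promoters. Of the rich promoters, 16 (3.25%) had less than 200 bases, against 7.63% of the others. For the 64 rich ribosomal protein genes the median was 632.5 bases. The upstream neighbour was a divergent protein-coding gene for 265 of the 493 (53.8%), against 48.4% of the others. With only 1 ORF kept of each divergent pair in the set, the share was 47.5%. Dropping such ORFs lowers the share by itself. The other promoters were not thinned in the same way, so 47.5% cannot be set against their 48.4%. The neighbour was a tRNA gene for 11 (2.23%), against 4.12% of the others.

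In 59 divergent pairs both ORFs were rich, so 118 of the 493 entries describe shared intergenic DNA. The median ratio of the higher to the lower count in these pairs was 1.03 and the highest 1.43, and 7 pairs had identical counts at 0 min. Taking pairs with both counts above 274 narrows that ratio by itself. In 98 further pairs only 1 ORF was rich, and the median count of its partner was 176.5. The gaps between rich partners ran from 257 bases to the 3272 bases between NRG1 and HEM13, whose counts were 386 and 288. The authors' promoter window is not given in the sources used here, and where 2 windows overlap the same fragments were counted for both ORFs. An example is the pair of RPN5 (YDL147W), a proteasome lid subunit gene, and NOP14 (YDL148C), a ribosome biogenesis gene, which share 337 bases on chromosome IV, 190587 to 190923 of R64. RPN5 had 276, 239, 291, 294, 319 and 395 fragments over the 6 time points in order. NOP14 had 276, 242, 280, 290, 317 and 399. The 2 series never differed by more than 11 fragments, while the transcripts parted.

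RPN5 went from 137 TPM at 0 min through 164, 370, 639 and 652 to 735 TPM at 120 min, a log2 rise of 2.42 ± 0.02. NOP14 went from 145 TPM through 101, 22.6, 4.40 and 3.42 to 7.03 TPM, a log2 change of -4.19 ± 0.06. Entropy fell over NOP14, from 6.48 to 6.25 at 120 min, and went from 6.49 to 6.67 over RPN5, just short of the threshold. In 7 of the 59 pairs the transcripts passed a log2 change of 1 in opposite directions at 120 min. The other 6 were DFM1 and RRP17, COM2 and RPS26B, ERG4 and PDR1, TDA3 and RPL27A, RET1 and PTP2, and YOR292C and RPS10A. In 8 pairs both transcripts fell, and in 6 both rose. Such counts were not made over all 872 divergent pairs of the table, so nothing particular to rich pairs is read from them. Taken singly, 29.8% of all promoters had a higher transcript at 120 min and 22.4% a lower one. The promoter counts of partners did not always stay together either. COM2 and RPS26B, 1505 bases apart, had 293 and 350 fragments at 0 min and 462 and 295 at 120 min, and YOR292C and RPS10A had 358 and 282, then 563 and 383.

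The set kept most of its lead through the time course. At 7.5 min, the first column the rule did not use, the rich promoters had a median scaled count of 2.03, none was below the column median and the lowest stood at 1.25. Of the 493, 378 (76.7%) were still among the 493 highest counts at 7.5 min and 307 (62.3%) at 120 min, with 359, 362 and 330 in between. Their median scaled count was 1.92, 1.99, 1.86 and 1.84 in the later columns, while that of the other promoters stayed between 0.902 and 0.921. Their share of all fragments in the table went from 22.3% at 0 min to 19.9% at 120 min. In all 4 later columns 220 of the 493 (44.6%) were below their own 7.5 min level and 58 (11.8%) above it, against 30.1% and 22.6% of the others.

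Measured from 7.5 min, the median change of the rich promoters was -0.08, -0.02, -0.10 and -0.13 at 15, 30, 60 and 120 min. For the other promoters these medians were -0.03, -0.02, -0.01 and -0.03. At 120 min 30 rich promoters (6.09%) were lower by 0.5 or more, against 4.61% of all promoters, and 2 (0.406%) were higher, against 3.66% of all promoters. The share of falls is close to that of the table, and the share of rises is below it. With the columns as deposited 1.01% were lower, because the median fragment count itself grew. From 0 min, 35 (7.10%) were lower by 0.5 at 120 min, beside 5.22% of all promoters, and nothing is read from that count, as the 0 min column chose the promoters.

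**Figure D2:**
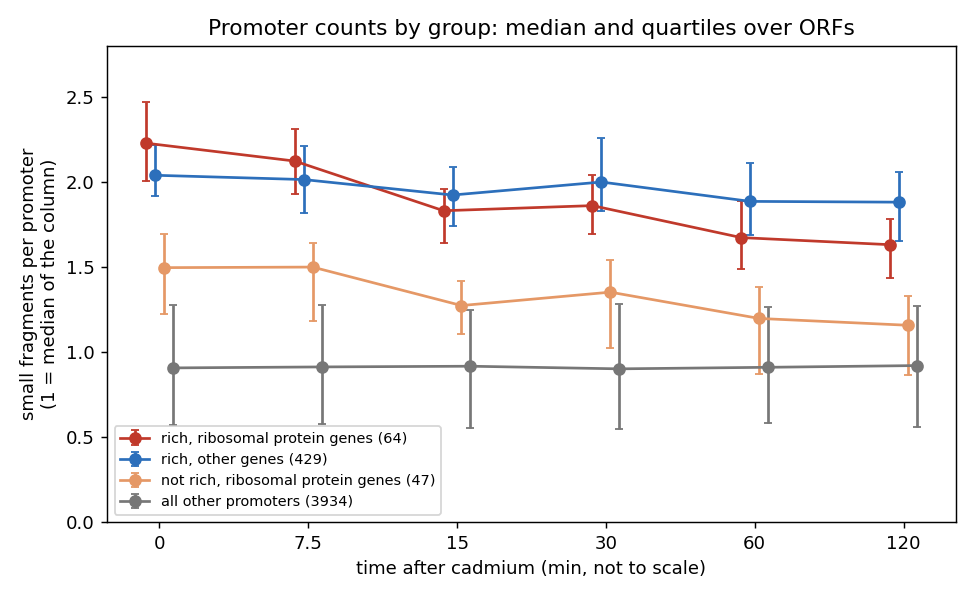
Scaled promoter count (vertical axis, 1 is the column median) at each time point (horizontal axis, min, not to scale). Points are medians and bars quartiles over the ORFs of each group, not replicate errors; the 3934 other promoters include the 47 ribosomal protein genes also drawn alone. Rich ribosomal protein promoters go from 2.23 at 0 min to 1.63 at 120 min, and the other rich promoters from 2.04 to 1.88.

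The relative decline was deepest among ribosomal protein genes but was not confined to them. From 7.5 to 120 min their 64 rich promoters had a median change of -0.33, with 62 of 64 below 0 and 13 (20.3%) lower by 0.5 or more. The 429 other rich promoters had a median of -0.11, with 17 (3.96%) lower by 0.5, against the 4.61% of all promoters given above. The ribosomal protein genes without a rich promoter moved alike, with a median of -0.35 and 11 of 47 lower. By 120 min 41 of the 64 were no longer among the 493 highest counts. The deeper fall of ribosomal protein genes thus went with the gene group whether or not the promoter was rich.

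The 5 largest sustained falls, below 7.5 min in every later column and ranked by the mean change, were all of ribosomal protein genes. RPS0A (YGR214W) had 338, 250, 163, 167, 75 and 115 fragments at the 6 time points in order, a log2 change from 7.5 to 120 min of -1.45 ± 0.12. RPL9A (YGL147C) had 309, 281, 216, 160, 128 and 145 fragments at the 6 time points, a change of -1.37 ± 0.12. Both were under the column median from 30 min on. RPS24B (YIL069C) had 349, 325, 255, 224, 171 and 188 fragments. RPL2A (YFR031C-A) had 411, 293, 239, 218, 155 and 183. RPS17B (YDR447C), at the lower edge of the set at 0 min, had 245, 161, 168, 156 and 169 from 7.5 min on. All 5 ended below the column median, as did 11 of the 493 rich promoters, of which 7 were ribosomal protein genes.

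Other ribosomal protein promoters moved less. RPL40A went from a scaled count of 3.81 at 7.5 min to 3.16 at 120 min, a change of -0.25 ± 0.08, and RPL20B from 2.98 to 2.61, a change of -0.17 ± 0.08. RPL19B had 436, 357, 397, 417, 445 and 588 fragments, a change from 7.5 to 120 min of -0.0041 ± 0.088. The transcripts fell all the same. RPL19B went from 3004 TPM at 0 min to 2859, 1552, 581, 155 and 111 TPM at the later time points.

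Outside the ribosomal protein genes, the deepest promoter fall by 120 min was that of PDC1 (YLR044C), with 277, 238, 264, 243, 198 and 132 fragments at the 6 time points in order. Its transcript held at 18102, 22011, 22416 and 15888 TPM until 30 min and was at 7780 TPM at 60 min and 3169 TPM at 120 min. Promoter and transcript were thus both lowest in the last column. RGL1 changed by -1.09 ± 0.10 from 7.5 to 120 min, while its transcript lay between 42.6 and 59.5 TPM throughout and passed no threshold. TAT2, a tryptophan permease gene, and HEM13, a heme synthesis gene, also ended below the column median.

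Few rich promoters gained. The 2 that were higher by 0.5 at 120 min were GAT1 and TPS2. GAT1 (YFL021W), an activator of nitrogen-regulated genes, had 285, 274, 414, 559, 670 and 814 fragments at the 6 time points in order, a change from 7.5 to 120 min of 0.77 ± 0.09. Its transcript went from 133 TPM to 248, 246, 306, 281 and 253 TPM, past a log2 change of 1 at 30 and 60 min only. TPS2 (YDR074W), a trehalose synthesis gene, had 284, 252, 337, 414, 598 and 622 fragments, a change of 0.52 ± 0.10. Its transcript rose with them, from 31.9 and 38.3 TPM at 0 and 7.5 min to 216, 276, 378 and 361 TPM.

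The other 3 largest sustained gains were at SPF1, an endoplasmic reticulum ion pump gene, with 172 fragments at 7.5 min and 424 at 120 min, SSH4, a gene of permease sorting, with 192 and 437, and HOG1, the kinase of the osmotic stress pathway, with 248 and 516. Each had a lower scaled count at 7.5 min than at 0 min, at 1.25 against 1.85 for SPF1. At 120 min the scaled counts of SPF1, SSH4 and HOG1 were 1.86, 1.92 and 2.26, beside 1.85, 1.84 and 2.25 at 0 min. By 120 min the gain from 7.5 min was thus a return to the first level within counting error.

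**Figure D3:**
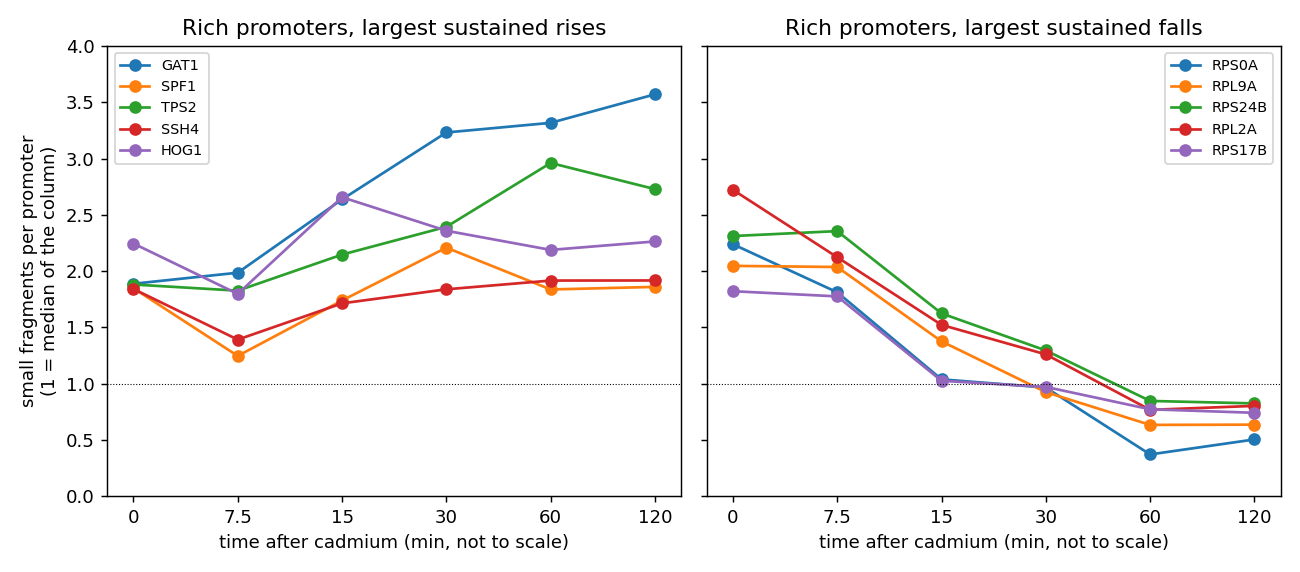
Scaled promoter count (vertical axis, 1 is the column median, dotted) at each time point (horizontal axis, min, not to scale) for the 5 rich promoters with the largest sustained rise from 7.5 min (left) and the 5 with the largest sustained fall (right). Each line is 1 promoter with 1 value per time point. GAT1 climbs to 3.57 at 120 min, and the 5 ribosomal protein promoters on the right all end below 1.

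Genes with rich promoters were expressed at a higher level before cadmium, with a median of 110.5 TPM against 51.4 TPM for the others. Without ribosomal protein genes, whose rich members had a median of 1642 TPM, the median was 84.7 TPM. TPM is divided by length, so these levels can be compared between genes. TPM is a share of a fixed total, and in these bulk samples fewer cells expressing a gene and less RNA per cell cannot be told apart. Across all promoters the median 0 min level was 35.0 TPM at counts of up to 100, 76.0 TPM from 201 to 274 and 132 TPM from 326 to 400, and it was lower again, at 115 TPM, for the 28 promoters above 400. Within the rich set the count no longer ordered expression, with a Spearman correlation across 493 ORFs of 0.028, against 0.288 across 3930 others. The range of counts is narrower within the set, and ORFs are not independent.

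In expression, the rich set split into ribosomal protein genes, all of which fell, and the rest, whose shares lay near those of the table. At 120 min 139 of the 493 (28.2%) were higher by 1 or more, against 29.8% of the 4423 promoters whose mean reached 1 TPM, and 152 (30.8%) were lower, against 22.4%. Of the 152, 64 were the ribosomal protein genes. Of the 429 others, 139 (32.4%) were higher and 88 (20.5%) lower, both near the background. TPM was also rescaled, with each column divided by its median ratio to the geometric mean of each gene over all columns. On that scale 107 of the 493 were higher and 182 lower, beside 23.3% and 28.1% of all promoters. Of the 429 others, 107 were then higher and 118 lower. The median log2 change of all promoters of the table at 120 min was 0.19 as deposited and -0.15 rescaled, and relative to it the non-ribosomal rich genes were at -0.03 in both scalings.

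At 60 min 142 rich genes were higher (28.8%, against 31.6% of all promoters) and 143 lower (29.0%, against 20.4%). At 30 min 138 were higher and 127 lower, against 28% and 18.1% of all promoters. At 15 min these counts were 95 and 75, against 18.2% and 13.8%. With rescaled TPM the 15 min counts were 83 higher and 102 lower (20.7%), against 16.2% of all promoters in each direction. Of the ribosomal protein genes, 23 of 64 had passed the threshold at 15 min as deposited, 42 with rescaled TPM, and 63 at 30 min as deposited.

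The 64 ribosomal protein genes held 15.0% of the TPM of the table's ORFs at 0 min and 14.3, 7.66, 2.75, 0.798 and 0.546% at the treated time points. From 15 min on their median log2 changes were -0.95, -2.46, -4.25 and -4.81. The 47 without a rich promoter were at -0.91, -2.34, -4.24 and -4.86, and 46 of them had fallen at 120 min, RPL15B being the exception with 41.8 TPM at 0 min and 112 TPM at 120 min. The smallest fall among the 64 at 120 min was that of RPS30A, at -1.96. RPS0A was at 1976, 1991, 1022, 317, 80.0 and 63.8 TPM. Many ribosomal protein genes come in near-identical pairs, and how shared reads were counted is not given in the sources used here, so the TPM of single copies is uncertain, whereas their upstream regions differ.

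Among the earliest changes past the threshold, rises in expression outnumbered falls, as they did over all promoters. By any amount, 189 of the 493 were higher at 7.5 min and 304 lower. At 7.5 min 25 rich genes (5.07%) were higher by 1, against 3.19% of all promoters, and 6 (1.22%) were lower, against 1.13%. The largest sustained rises, ranked by the mean over the treated time points, belonged to MET3, MET10, FPT1, PRB1 and ENA1. MET3 (YJR010W), the first enzyme of sulfate assimilation, went from 18.5 TPM at 0 min to 529, 3736, 7592, 7193 and 5461 TPM at the later time points. The promoter of MET3 held 371, 378, 422, 543, 575 and 654 fragments. A log2 expression change of 8.13 ± 0.05 at 120 min thus stood beside a promoter change of 0.06 ± 0.09 from 7.5 min.

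MET10 (YFR030W), a sulfite reductase subunit gene, went from 45.6 TPM to 408, 2072, 3865, 4066 and 3594 TPM, with 297 fragments at 0 min and 579 at 120 min. PRB1 (YEL060C), a vacuolar protease gene, went from 56.1 to 127, 608, 1879, 2861 and 4108 TPM, with 281 and 411 fragments. Its scaled count was 1.86 at 0 min and 1.80 at 120 min. ENA1 (YDR040C), a sodium pump gene, went from 5.50 to 39.3, 123, 199, 129 and 116 TPM, and FPT1 (YKR011C) from 5.47 to 26.3, 192, 234, 194 and 168 TPM. ENA1 and FPT1 had 445 and 479 fragments at 0 min, among the highest of the table, at a time when their transcripts were scarce. Rich promoters before cadmium thus included some with scarce transcripts.

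All 5 sulfur metabolism genes of the set had risen by 120 min, beside 29.8% of all promoters higher by 1. Their median log2 change was 4.09, and the lowest was that of CYS4, at 1.22. CYS3 (YAL012W), which makes cysteine from cystathionine, went from 480 to 8173 TPM at 120 min. SAM3, an S-adenosylmethionine permease gene, went from 96.3 to 663 TPM at 7.5 min and stayed between 595 and 672 TPM. None of the 5 promoters passed a change of 0.5 from 7.5 min, and their median was 0.06.

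All 4 heat shock and chaperone genes had risen by 120 min, beside 29.8% of all promoters higher by 1. SSC1 passed that threshold only just, at 1.02 ± 0.01, and a value so near it depends on how TPM is scaled. KAR2 (YJL034W), the chaperone of the endoplasmic reticulum, went from 299 TPM to 921, 2787, 2756, 4886 and 5091 TPM, and its promoter held 420, 400, 328, 394, 427 and 472 fragments. The scaled count of that promoter was 2.90 at 7.5 min and 2.07 at 120 min, so it was lower in the last column while the transcript was at its highest. HSP60 (YLR259C), a mitochondrial chaperonin, was at 233, 662, 1798, 1247, 617 and 862 TPM, and SSC1 (YJR045C), the mitochondrial Hsp70, at 496, 983, 2091, 1146, 814 and 1008 TPM. Both mitochondrial chaperones peaked at 15 min.

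All 4 genes of the proteasome list, which includes the activator gene RPN4 besides subunit genes, had also risen by 120 min. So had all 3 oxidative and general stress genes, beside 29.8% of all promoters higher by 1. RPN4 was at 84.7, 297, 315, 88.0, 223 and 494 TPM, with a dip at 30 min. RPN1, a subunit of the regulatory particle, went from 132 to 693 TPM, and PRE10, a core subunit, from 117 to 768 TPM. TSA1 (YML028W), a peroxiredoxin gene, went from 513 to 7098 TPM and GSH1 (YJL101C), the first enzyme of glutathione synthesis, from 45.2 to 860 TPM. These promoters had 327 and 298 fragments at 0 min and 564 and 547 at 120 min, which is 2.02 and 2.60 scaled at 7.5 min and 2.47 and 2.40 at 120 min.

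The 5 largest sustained falls, ranked by the mean over the treated time points, were all in ribosome biogenesis. All 10 such genes of the set had fallen by 120 min, beside 22.4% of all promoters lower by 1, with a median of -4.30. RLP24 (YLR009W), a factor of large-subunit assembly, was at 552, 358, 38.8, 14.9, 7.95 and 9.16 TPM, and its promoter at 334, 329, 340, 420, 414 and 474 fragments. UTP13 (YLR222C), of the small-subunit processome, went from 182 to 4.23 TPM with 299 fragments at 0 min and 465 at 120 min. BRX1, DIP2 and NOG2 went from 455 to 7.90, from 211 to 6.79 and from 332 to 15.0 TPM. Of the 10 promoters, only that of BRX1 passed a fall of 0.5 from 7.5 to 120 min, at -0.52 ± 0.10, which became 0.12 with the columns as deposited. For these genes the transcripts had a median change of -4.30 against -4.81 for the ribosomal protein genes, while the median promoter change from 7.5 min was -0.17 against -0.33. That difference was not tested.

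The remaining lists were mixed. Of the 21 transcription regulators, 6 were higher and 4 lower by 1 at 120 min, shares near the 29.8% and 22.4% of all promoters. NRG1, a repressor of glucose-repressed genes, rose from 46.2 to 798 TPM and YAP5, an iron-responsive activator, from 25.9 to 116 TPM, whereas TBF1 fell from 80.7 to 33.0 TPM and the oxidative stress regulator SKN7 from 147 to 58.1 TPM. PHO4 was higher only at 7.5 min, at 201 TPM after 79.0 TPM. HAP1 went from 62.1 to 106 TPM, short of the threshold. Of the 8 amino acid synthesis genes 3 rose and 3 fell, beside the same 29.8% and 22.4%, too few to read a result from. Among them HOM6, of the threonine and methionine pathway, went from 383 to 1832 TPM. ILV3, of branched-chain synthesis, went from 1214 to 35.8 TPM and LEU1, of leucine synthesis, from 1051 to 254 TPM.

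Of the 9 transporter genes none was higher at 120 min and 4 were lower, beside 29.8% and 22.4% of all promoters. With so few genes nothing is read from these counts. The 4 included the ammonium permease gene MEP3, from 164 to 37.8 TPM, and the glutamine permease gene GNP1, from 360 to 83.3 TPM. The biotin transporter gene VHT1 was high at 7.5 min alone, with 45.7, 179, 89.4, 65.0, 31.0 and 23.5 TPM. The 3 translation factor genes FUN12, TIF3 and EFB1 fell, from 335 to 94.2, from 593 to 115 and from 2345 to 303 TPM. The dihydroorotate dehydrogenase gene URA1 went from 351 to 21.6 TPM and the replication licensing gene CDC6 from 54.9 to 26.2 TPM. Of the cell wall genes CHS1, a chitin synthase gene, rose from 89.1 to 315 TPM and SUN4 fell from 342 to 77.9 TPM.

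**Figure D4:**
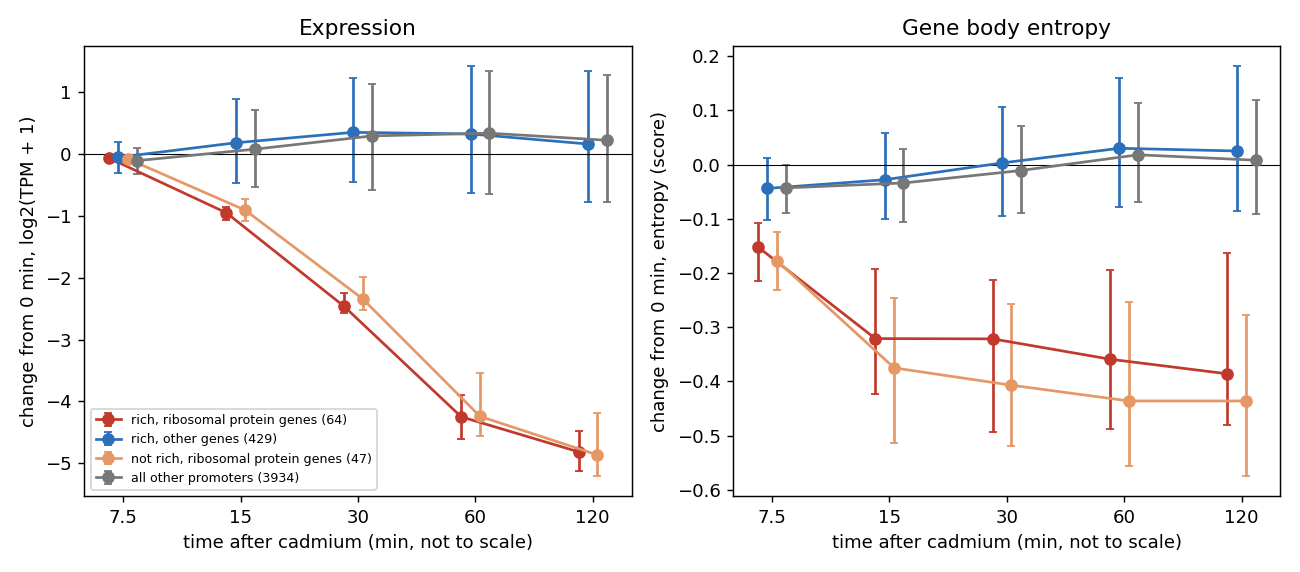
Change from 0 min in log2(TPM + 1) (left) and in gene body entropy (right) at each treated time point (horizontal axis, min, not to scale). Points are medians and bars quartiles over the ORFs of each group, not replicate errors; the 3934 other promoters include the 47 ribosomal protein genes drawn alone. Ribosomal protein genes with and without a rich promoter run together, reaching -4.81 and -4.86 in expression and -0.386 and -0.436 in entropy at 120 min, and the other rich genes run with the rest of the table.

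Gene body entropy differed little between the sets at 0 min, with a median of 6.64 for rich promoters and 6.61 for the others. It was 7.06 for the 64 ribosomal protein genes and 6.59 for the other rich genes. At 120 min 99 rich genes (20.1%) were higher by 0.2, against 14.9% of all promoters, and 96 (19.5%) were lower, against 12%. At 60 min 83 (16.8%) were higher and 91 (18.5%) lower, against 12.8% and 10.5%. At 15 min 44 (8.92%) were higher and 99 (20.1%) lower, against 4.56% and 10.8%. At 30 min 62 and 99 were, against 7.95% and 10.4%, and at 7.5 min 20 and 39, against 1.81% and 4.04%. Entropy thus moved past the threshold in both directions in a larger share of rich genes than of the table at every treated time point. How many fragments lie behind each entropy value is unknown.

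Of the 64 ribosomal protein genes, 46 were lower in entropy by 0.2 at 120 min and 17 already at 7.5 min. They were 46 of the 96 rich genes with a fall at 120 min and 17 of the 39 at 7.5 min. Among the 47 without a rich promoter, 40 were lower at 120 min. Without ribosomal protein genes, 50 of the 429 rich genes (11.7%) were lower at 120 min, near the 12% of all promoters, and 99 (23.1%) were higher. The largest sustained falls were those of RPS10B, RPS26B, RPL21B, RPS19B and RPS29B. RPS10B (YMR230W) went from 7.15 at 0 min to 6.87, 6.59, 6.38, 6.45 and 6.34, while its promoter held 276 fragments at 0 min and 349 at 120 min. RPS29B (YDL061C) went from 6.95 to 6.21 at 120 min, with 346 and 447 fragments. These gene bodies became more regular by the score, while their promoters passed no fall of 0.5 from 7.5 min. All 5 scaled counts were lower at 120 min, with changes of -0.20, -0.46, -0.42, -0.11 and -0.18 in the order named.

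RPS0A, whose promoter fell furthest, went the other way in entropy, from 6.99 at 0 min to 7.02, 7.21, 7.22, 7.19 and 7.16. It was the 1 ribosomal protein gene of the set that was higher by 0.2 at 15 and at 30 min. The 64 started at a median of 7.06, and no score at any time point exceeded 7.235, so a rise of 0.2 had little room. Its upstream neighbour RTA1 is transcribed in the opposite direction, 1109 bases away.

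The largest sustained rises in entropy belonged to KAR2, CMK2, MET3, YME1 and TAD2. KAR2 went from 6.36 at 0 min to 6.93, 7.16, 7.09, 7.20 and 7.20. TAD2 (YJL035C), a tRNA adenosine deaminase gene, lies 325 bases from KAR2 in the divergent direction, on chromosome X between 381002 and 381326. Its entropy went from 6.43 to 6.68, 7.02, 6.84, 6.96 and 7.08, while its transcript stayed between 40.5 and 79.4 TPM and passed no threshold. The shared promoter gave the pair 420 and 418 fragments at 0 min. CMK2 (YOL016C), a calmodulin-dependent kinase gene, went from 6.12 to 6.97 at 120 min and from 25.4 to 730 TPM. YME1 (YPR024W), a mitochondrial protease gene, went from 6.27 to 7.10 and from 76.2 to 172 TPM. MET3 went from 6.60 to 7.19 at 30 min and stood at 7.05 in the last column. At 4 of these 5 genes expression rose past the threshold as well, with TAD2 the exception.

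At 7.5 min rises in entropy and in expression often coincided in the set, while falls in entropy outnumbered falls in expression. Of the rich genes 39 were lower in entropy (7.91%, against 4.04% of all promoters) and 6 in expression (1.22%, against 1.13%). Of the 64 ribosomal protein genes 17 were lower in entropy and 0 in expression. Of the 25 rich genes with a higher transcript at 7.5 min, 14 also had a higher entropy, and of 116 other genes with a higher transcript 46 did. The 25 included CYS3, RPN4, NRG1, PHO4, YAP5, MDJ1, KAR2 and HSP60. At 120 min, of the 139 rich genes with a higher transcript 68 had a higher and 6 a lower entropy, and of the 152 with a lower transcript 1 had a higher and 76 a lower entropy. Among the other promoters, of the 1179 with a higher transcript 353 had a higher and 59 a lower entropy, and of the 837 with a lower transcript 26 had a higher and 262 a lower one.

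Across the 493 rich genes, the Spearman correlation of entropy change with expression change was 0.359, 0.697, 0.717, 0.689 and 0.666 at the treated time points. Across the 3930 others it was 0.323, 0.549, 0.529, 0.492 and 0.455. Without ribosomal protein genes it was 0.558 across 429 rich genes at 120 min. Within the 64 ribosomal protein genes, nearly all of which moved one way, it was 0.198. The promoter change from 7.5 min had a correlation with expression change of 0.287 at 15 min and 0.446 at 120 min across the rich genes, and of 0.335 at 120 min without ribosomal protein genes. Across the others it was 0.403. The points of each correlation come from the same columns, and the ORFs of a divergent pair share a promoter, so these values describe these columns.

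By expression class, the 139 rich genes with a higher transcript at 120 min had a median promoter change from 7.5 min of -0.04, the 202 within the threshold one of -0.13, and the 152 with a lower transcript one of -0.21. For the other promoters these medians were 0.09, -0.04 and -0.17. The median change was thus lower for rich promoters in each class, although their median scaled counts at 120 min, 1.97, 1.85 and 1.68, stayed above the 1.04, 0.886 and 0.864 of the others. In the class with a lower transcript the rich promoters without ribosomal protein genes were at -0.18, close to the others. Of the 139 rich genes with a higher transcript 1 promoter passed a rise of 0.5, against 140 of the 1179 others. The promoters of the others started from fewer fragments and have a larger counting error. The part of that error in the difference was not tested.

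**Figure D5:**
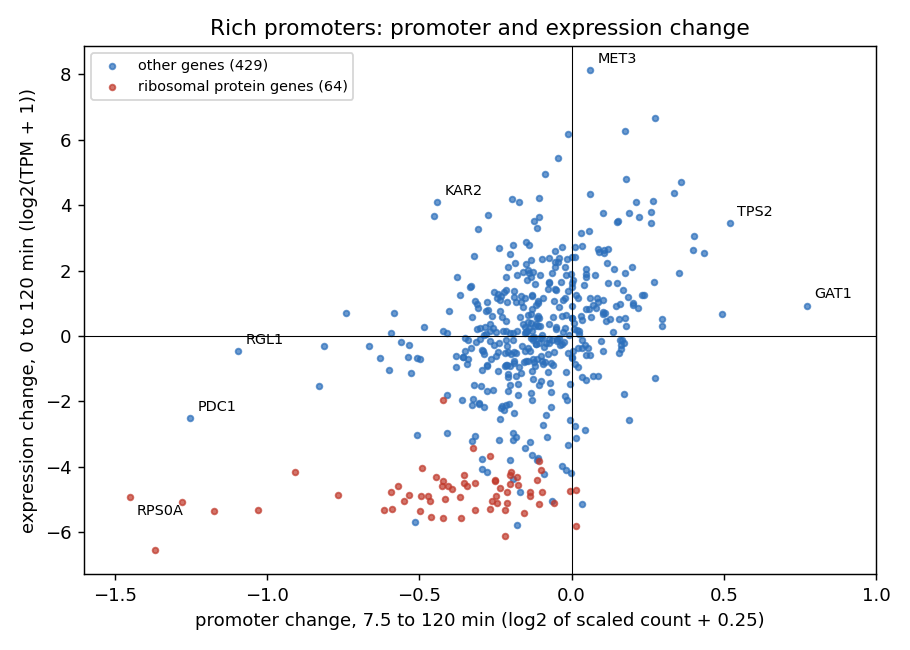
Promoter change from 7.5 to 120 min (horizontal axis, log2 of scaled count plus 0.25) against expression change from 0 to 120 min (vertical axis, log2(TPM + 1)) for the 493 rich promoters, 1 point per ORF, with ribosomal protein genes in red. All 64 red points lie at -1.96 or lower on the vertical axis, and their promoter changes run from -1.45 at RPS0A to 0.02 at RPS19A.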

How the data were processed

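The deposited promoter table holds counts of small MNase fragments per promoter as whole numbers, per the file headers. The deposited expression table holds TPM, and the third table holds the authors' entropy score for each gene body. The submitters' processing notes name Bowtie 0.12.7 and the sacCer3 and R64 builds. Fragment lengths, promoter windows, the entropy formula, the RNA counter and whether a column combines replicates are not given in the sources used here.

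Each promoter column was divided by its median before log2 changes were taken with a pseudocount of 0.25, and TPM was used as log2(TPM + 1) for ORFs whose mean reached 1 TPM. TPM times gene length gave whole reads for 99.5% of genes (tolerance 0.02), from 31543400 to 33946100 reads per column, and the errors of TPM changes rest on these. Calls are fold thresholds with no test. ORFs were matched to symbols, coordinates and neighbours in the RefSeq table of assembly R64, and all 4427 matched. Python 3.11.15, numpy 2.4.6, pandas 2.3.3, scipy 1.17.1 and matplotlib 3.10.9 were used.

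The promoters and the 15 gene lists were chosen with earlier results of these data known. The genes named are the 10 highest 0 min counts, the 5 largest sustained rises and falls in each measure and the 3 highest counts of each list. Also named are 3 of the promoters tied on each side of the threshold. Other genes are named as further examples of a group, chosen after their values were seen. A planned motif search was not run, since no promoter sequence was used here.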

Additional observations from a re-analysis of the deposited data

How the results depend on the processing

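Of 108 values under the alternatives for the set as a whole, at 120 min or for its upstream neighbours, 66 kept within their margin and 42 moved. With the promoter columns as deposited, the median promoter change from 0 to 120 min was 0.37 in place of -0.17, 1.83% were lower and 22.3% higher, and 1.01% were lower from 7.5 min, since the column median grew. BRX1 and CDC6, lower from 7.5 min as scaled, were then at 0.12 and 0.034. Divided by the median of the other promoters, the median was -0.19. A pseudocount of 0.5 gave 5.07% lower, and 4.26% from 7.5 min. From 7.5 min the median was -0.13. A promoter threshold of 1 gave 1.83% lower, 0% higher and 1.42% lower from 7.5 min. Membership from 300 fragments gave a median of -0.19 and 0% higher. Membership by the 7.5 min column gave -0.12, 4.87% lower and 2.23% higher. Membership by the mean scaled count, which favours promoters high late, gave -0.089, 3.04% lower, 3.85% higher and 3.25% lower from 7.5 min. It gave a median expression change of 0.26 with 23.3% lower and 35.7% higher, and an entropy change of 0.022 with 15.6% lower and 24.1% higher. Without ribosomal protein genes the promoter median was -0.14, with 4.43% lower and 3.96% lower from 7.5 min. Expression was then at 0.16 with 20.5% lower and 32.4% higher, and entropy at 0.025 with 11.7% lower. Rescaled TPM gave -0.45, 36.9% lower and 21.7% higher. An entropy threshold of 0.1 gave 32.3% lower and 30.4% higher, and one of 0.3 gave 11.6% and 13.2%. With 1 ORF of each divergent pair, 47.5% had a divergent coding neighbour. Where not stated, the cause was not tested. Of the remaining values, for the set at earlier time points and for single genes, 588 kept within their margin, 196 moved and 2 reversed. No paired analysis was possible because each table holds 1 column per time point with no replicate number, and no replicate could be left out for the same reason. Counts near the threshold carry a counting error of 16.6 fragments, so membership there is not sharp.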

Other observations

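By 120 min 186 promoters had entered the 493 highest counts and 186 had left. Of those that entered, 127 (68.3%) had a transcript higher by 1 or more on the log2 scale at 120 min and 10 (5.38%) a lower one, against 29.8% and 22.4% of all promoters. Of those that left, 28 (15.1%) had a higher and 86 (46.2%) a lower transcript, beside the same shares of all promoters. Among the lists, 12 of the 27 sulfur metabolism genes in the table entered and none left. The list thus held 5 of the 493 highest counts at 0 min and 17 at 120 min. Heat shock and chaperone genes gained 6 with none lost, and proteasome genes and oxidative and general stress genes gained 4 each with none lost. Ribosomal protein genes gained 1 and lost 41. Transcription regulators and plasma membrane transporter genes gained 5 and lost 5 each. The column's own count set who entered and left, so the numbers describe the turnover, and no test was made of them.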
